A study of Mus musculus with 15 samples.

Results

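The 9 genes described here are the goblet cell mucus genes Muc2, Zg16, Fcgbp, Clca1, Tff3, Spink4, Agr2, Spdef and Ccl9. They were chosen by name as rows of a count table of sorted mouse intestinal epithelium, and all 9 were found among its 24594 rows and among the 13314 genes tested. The series holds 15 RNA-seq libraries in 5 groups of 3, and 2 of these groups carry gene names and are used here. Fetal libraries came from C57Bl/6J embryos at E16.5, from proximal intestine, with no treatment, sorted as EpCAM+/DAPI-/CD31-/CD45- cells, and no genotype label was given for them. Adult libraries came from untreated wildtype C57Bl/6J mice, from crypts of the proximal 20% of the small intestine, sorted as EpCAM+/DAPI-/Lin-/CD24mid cells. The organoid libraries (wildtype E16.5, and TetON-hYAP/H2B-mCherry with or without doxycycline) stand in a table that names no genes and were not used here.

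Goblet cells are the mucus-secreting cells of the gut lining. They store the gel-forming mucin Muc2 in granules together with smaller secreted proteins, and the released gel keeps microbes away from the epithelium. Fate is set by Notch signalling and the transcription factor Atoh1, and the ETS factor Spdef drives maturation of the committed cell. The folding of mucins in the endoplasmic reticulum (ER) needs Agr2, and the sugar chains are added in the Golgi.

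Total counts were 5795518 to 10538004 per library. Replicate libraries differed from each other beyond counting noise (chi-square per degree of freedom at least 5.17), so each was treated as 1 sample. Separate animals are not stated for the replicates, so the p-values rest on a library spread that may be technical only. The gated marker genes were present in both groups: Epcam averaged 844 CPM (read counts scaled to equal adjusted library sizes) in fetal and 1034 CPM in adult libraries, and Cd24a, the gene of the CD24 gate, 287 and 283 CPM. The adult gate selected on CD24 and on crypts and the fetal gate did not, so age and gate cannot be told apart in any comparison below. Markers of other tissues were higher in the fetal libraries. Stomach markers summed to 63.6, 51.9 and 426 CPM in fetal replicates 1 to 3 and to 15.6 to 15.9 CPM in adult libraries, where 10 of the 17 in the table had 0 counts. Pancreatic exocrine markers summed to 1907 to 3963 CPM in fetal and 10.0 to 20.7 CPM in adult libraries. Mesenchyme markers summed to 153 to 216 and 7.43 to 16.1 CPM. Of 15 mesenchyme markers 6 had 0 adult counts, and 11 were tested and called higher. With so few adult counts such genes pass the count filter mostly through the fetal libraries, so this count of calls adds no separate support. What share of any result below cells of these other tissues account for was not tested.

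Promoter sequence is shown for 3 genes whose levels went different ways: Muc2 and Fcgbp were lower and Ccl9 was higher in fetal cells. The RefSeq promoter table (build GRCm38.p6, the same assembly as mm10) held 5 of the 9 genes, namely Muc2, Fcgbp, Ccl9, Agr2 and Spdef. Each line gives the 250 bases before the annotated start, 5′ to 3′ on the gene's strand. Capitals mark the exact letters TATAAA on either strand, at any distance from the start, and CAGCTG. The former are letters of a TATA box, but whether a marked match serves as one was not tested. Inexact matches to them, such as those close to the start in Muc2 and Fcgbp, are not marked. CAGCTG is a palindromic E-box of the kind that basic helix-loop-helix factors such as Atoh1 bind.
Muc2, chr7:141690090-141690339, plus strand: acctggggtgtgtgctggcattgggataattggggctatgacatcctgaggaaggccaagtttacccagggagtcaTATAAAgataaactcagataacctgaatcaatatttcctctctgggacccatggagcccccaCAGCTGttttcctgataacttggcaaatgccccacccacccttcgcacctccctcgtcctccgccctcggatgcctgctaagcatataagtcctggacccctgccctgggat
Fcgbp, chr7:28070986-28071235, plus strand: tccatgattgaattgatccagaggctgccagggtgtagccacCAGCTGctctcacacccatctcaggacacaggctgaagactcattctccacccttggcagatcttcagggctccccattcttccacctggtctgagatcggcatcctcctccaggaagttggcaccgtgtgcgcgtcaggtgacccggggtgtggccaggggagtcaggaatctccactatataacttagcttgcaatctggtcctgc
Ccl9, chr11:83578637-83578886, minus strand: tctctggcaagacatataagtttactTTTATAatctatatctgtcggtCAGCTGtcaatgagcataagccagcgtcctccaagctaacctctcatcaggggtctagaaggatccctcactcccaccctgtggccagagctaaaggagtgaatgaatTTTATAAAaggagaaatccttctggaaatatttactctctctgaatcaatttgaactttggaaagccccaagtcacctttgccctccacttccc
CAGCTG stood in 3 of the 5 promoters, and in 13.0% of 32841 annotated promoters of the same length. TATAAA on either strand stood in 2 of the 5 and in 12.4% of all. In Muc2 it lay at bases 174 to 169 before the start, and in Ccl9 1 match lay at bases 224 to 219. In Ccl9 the matches on both strands overlap each other at 1 place, bases 94 to 87 before the start. The CDX site TTTATG stood in the promoters of Agr2 and Spdef (10.8% of all), the XBP1 core ACGTG in that of Spdef (16.6%), and TGTTTAC (FOXA, 3.17%) and CCGGAT (SPDEF core, 4.94%) in none of the 5. For Spdef the annotated start of the table lies inside the gene span given below, so its window (chromosome 17, 27728952 to 27729201) is not the sequence before the end of that span. Motifs were searched on both strands, and a match describes letters only.

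Genes of the secreted mucus proteins were lower in fetal cells by widely different amounts, the maturation factor Spdef was not called, and the chemokine Ccl9 was higher. In an edgeR quasi-likelihood test over all genes with Benjamini-Hochberg adjustment, 7 of the 9 were called lower in fetal cells at an adjusted p under 0.05, 1 was called higher and 1 was not called. Of all tested genes 54.9% were called, 25.9% lower and 29.0% higher. The median log2 fold change was −1.35 for the 9 genes and 0.01 for all tested genes. Muc2 and Zg16, 2 of the 9, were lower by over 8-fold, as were 1.67% of tested genes. In bulk libraries fewer goblet cells and less RNA per goblet cell cannot be told apart.

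**Figure D1:**
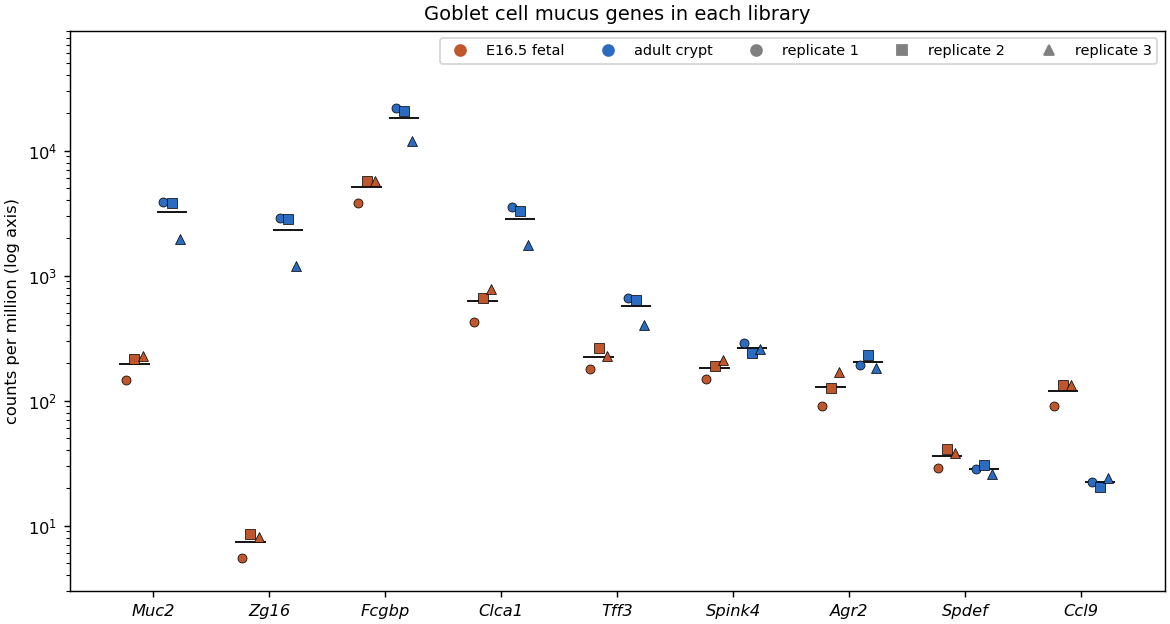
CPM (log axis) of the 9 genes in each fetal (orange) and adult (blue) library, with replicates as symbols and group means as horizontal lines (n = 3). Zg16 lies between 5.49 and 8.61 CPM in fetal libraries and between 1195 and 2907 CPM in adult ones, while Spdef overlaps between the groups and Ccl9 is higher in all 3 fetal libraries.

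Muc2, the gel-forming mucin that builds the intestinal mucus layer (Entrez 17831, chromosome 7, 141690340 to 141754691 in GRCm38), held 147, 215 and 227 CPM in replicates 1 to 3 of the fetal group. Adult replicates 1 to 3 stood at 3881, 3823 and 1950.4 CPM. Every fetal library lay below every adult one, and adult replicate 3 was the lowest adult library. The means were 196 ± 43.3 and 3218 ± 1098 CPM (SD, n = 3), and the log2 fold change was −4.03 ± 0.25 (SE, edgeR adjusted p = 2.92e-08).

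Zg16, a small lectin-like granule protein that binds Gram-positive bacteria and aggregates them in mucus (Entrez 69036, chromosome 7, 127050156 to 127052675), had few reads in fetal cells. It had 44, 69 and 86 counts in the fetal libraries, or 5.49, 8.61 and 8.06 CPM, and 2907, 2839 and 1195 CPM in the adult libraries. Its mean was 313-fold lower in fetal cells (log2 fold change −8.28 ± 0.36, edgeR adjusted p = 1.02e-09). The annotation places 2 RNA genes on the opposite strand over Zg16 (Gm44939 and Gm22747), and the strand setting of the counting is not given in the sources used here.

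Fcgbp, a large mucus protein that associates with Muc2 in the gel (Entrez 215384, chromosome 7, 28071236 to 28120864), took more reads than any other of the 9. It held 0.387% to 0.580% of all counts of a fetal library and 1.19% to 2.12% of an adult one. Its CPM were 3808, 5727 and 5698 in fetal and 21744, 20657 and 11934 in adult libraries, with no overlap. The log2 fold change was −1.83 ± 0.22 (edgeR adjusted p = 1.26e-05).

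Clca1, a secreted metalloprotease that cleaves Muc2 (Entrez 23844, chromosome 3, 145004537 to 145032776), stood at 427, 664 and 778 CPM in fetal libraries. The adult libraries held 3516, 3305 and 1744 CPM, and the groups did not overlap. Its log2 fold change was −2.20 ± 0.25 (edgeR adjusted p = 8.25e-06). Tff3, the trefoil peptide of goblet cells that aids epithelial repair (Entrez 21786, chromosome 17, 31125306 to 31129611), stood at 180.0, 264 and 226 CPM against 665, 639.6 and 401 CPM. The fold change of Tff3 was smaller, at −1.35 ± 0.18 on the log2 scale (edgeR adjusted p = 2.74e-05).

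Spink4 and Agr2 were only modestly lower. Spink4, a Kazal-type protease inhibitor peptide (Entrez 20731, chromosome 4, 40920056 to 40931395), stood at 148, 189 and 212 CPM in fetal and 288, 241 and 259.8 CPM in adult libraries. Its log2 fold change was −0.52 ± 0.12 (edgeR adjusted p = 0.00245). Agr2, a protein disulfide isomerase needed for mucin folding (Entrez 23795, chromosome 12, 35992925 to 36004081), stood at 90.4, 125 and 169 CPM against 193, 233 and 181 CPM. All fetal libraries lay below all adult ones for both genes, with a narrow gap for Agr2 between fetal replicate 3 and adult replicate 3. The log2 fold change of Agr2 was −0.65 ± 0.18 (edgeR adjusted p = 0.0069). Stomach epithelium also makes Agr2, and the library highest in Agr2 among the fetal ones, replicate 3, was also the one with 426 CPM of stomach markers. In that library 9 of 25 other goblet products also lay more than 0.5 (log2) above the mean of fetal replicates 1 and 2, as did 3.86% of tested genes. The part of stomach cells in Agr2 was not tested. Without fetal replicate 3 the log2 fold change of Agr2 was −0.90, and without fetal replicate 1, the lowest fetal library for Agr2, it was −0.44.

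Spdef, the ETS transcription factor of goblet and Paneth cell maturation (Entrez 30051, chromosome 17, 27714446 to 27731003), stood at 28.8, 41.3 and 37.9 CPM in fetal and 28.5, 30.7 and 25.8 CPM in adult libraries. Fetal replicate 1 lay within the adult range and the other fetal libraries above it. The log2 fold change was 0.35 ± 0.14 and was not called (edgeR adjusted p = 0.0556). Without fetal replicate 1 it was 0.49 and called higher (adjusted p = 0.00726, range over all settings 0.00726 to 0.219).

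Ccl9, a CC chemokine that attracts myeloid cells (Entrez 20308, chromosome 11, 83572917 to 83578636), went the other way. Fetal libraries held 90.7, 133 and 133 CPM and adult libraries 22.4, 20.2 and 24.2 CPM, so each fetal library was above each adult one. The mean was 5.33-fold higher in fetal cells (log2 fold change 2.42 ± 0.15, edgeR adjusted p = 3.18e-08). Myeloid cells also make this chemokine. Of 20 macrophage and other immune markers only 7 were tested, and 4 were higher and 3 lower. Over all tested genes 29.0% were higher and 25.9% lower. The list of 20 summed to 76.8 to 93.8 CPM in fetal and 59.0 to 71.2 CPM in adult libraries. C1qa had 190 fetal and 4 adult counts. The macrophage marker Adgre1, Lyz2 and Ptprc were named after their values were seen and do not stand for the list. Adgre1 had 0 counts in all 6 libraries, Lyz2 had 3 fetal and 4 adult counts, and Ptprc had 6 and 9. The part of such cells in the Ccl9 difference was not tested.

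The groups did not overlap in 7 genes with fetal libraries below and in 1 gene with fetal libraries above, where 29.6% and 32.7% of tested genes did so. The plot of fold changes orders the genes from Zg16 to Ccl9.

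**Figure D2:**
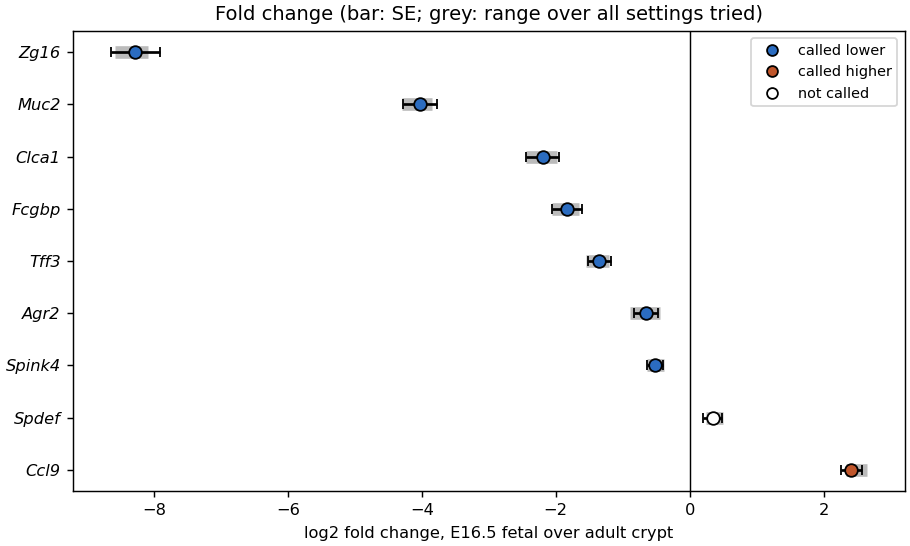
Log2 fold change of fetal over adult for the 9 genes, with the SE as a bar and, in grey, the range over all 16 settings tried. The range from Zg16 at −8.28 to Ccl9 at 2.42 is far wider than any single error bar, and only Spdef lacks a call.

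The other 8 genes were also compared with Muc2 inside the same library, which removes the library size and asks whether they differed by unequal amounts. For every 100 Muc2 counts, Zg16 had 3.78, 4.03 and 3.56 counts in the fetal libraries and 74.9, 74.3 and 61.3 in the adult ones. The log2 ratio of Zg16 to Muc2 differed by −4.21, so Zg16 was lower beyond the difference in Muc2. For the same 100 Muc2 counts, Ccl9 had 61.7, 61.9 and 58.5 counts in fetal and 0.581, 0.530 and 1.25 in adult libraries. Clca1 had 290.4, 309 and 342 against 90.6, 86.5 and 89.4, and Fcgbp 2591, 2666 and 2504 against 560.3, 540.4 and 612.

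The log2 ratio to Muc2 was higher in fetal cells by 1.82 for Clca1, 2.18 for Fcgbp, 2.66 for Tff3, 3.30 for Agr2, 3.46 for Spink4, 4.32 for Spdef and 6.38 for Ccl9. In each of the 8 genes the 3 fetal ratios stood apart from the 3 adult ratios. An exact two-sided permutation test over the 6 libraries gave p = 0.1 for each (adjusted p = 0.1 over 8 genes), the smallest that 3 against 3 libraries allow. Over the 8 genes the SD of the log2 ratio ran from 0.05 (Fcgbp and Ccl9) to 0.19 (Agr2) in fetal libraries, and from 0.03 (Clca1) to 0.68 (Ccl9) in adult ones.

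**Figure D3:**
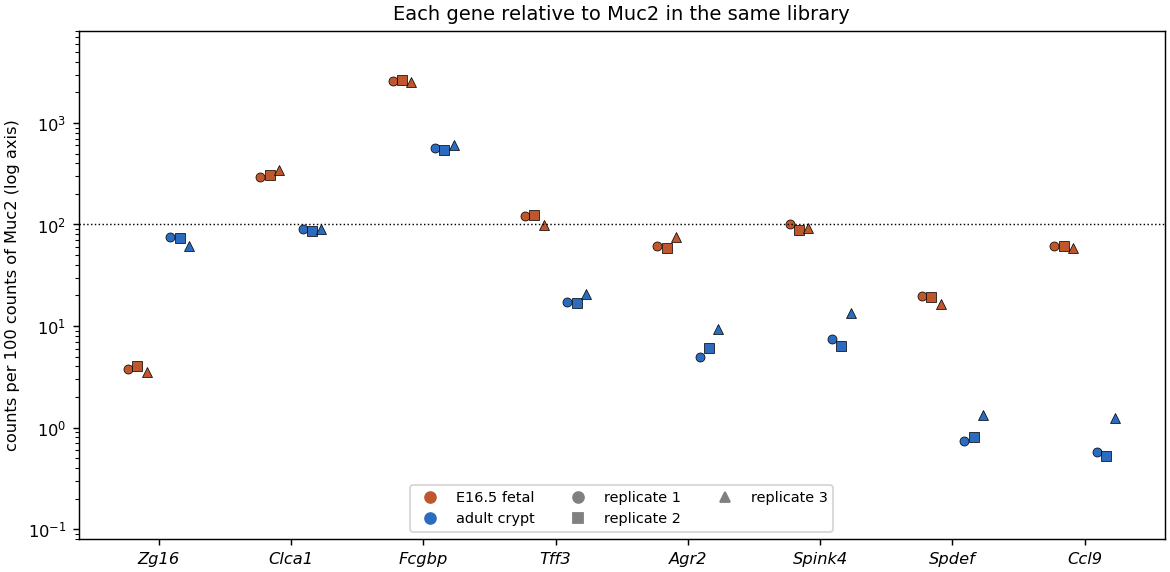
Counts of each gene per 100 counts of Muc2 in the same library (log axis; symbols as replicates, dotted line at equal counts with Muc2). Zg16 is the 1 gene whose fetal ratios, 3.56 to 4.03, lie below the adult ones, 61.3 to 74.9, while the other 7 lie above.

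Levels of different genes were compared per kilobase of annotated exon (RPKM, CPM divided by exon length from GENCODE M21). In adult cells the order of the means was Zg16 at 1841 ± 771 RPKM (SD, n = 3), Fcgbp at 1725 ± 512, Tff3 at 1153 ± 296, Clca1 at 756 ± 256, Spink4 at 551 ± 48.7 and Muc2 at 452 ± 154. The ranges of neighbours in that order overlapped, so their order is not fixed by 3 libraries. Agr2 at 157 ± 21.4, Spdef at 12.3 ± 1.08 and Ccl9 at 7.32 ± 0.661 RPKM followed, each below the range of the gene before it.

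In fetal cells the per-length order was Fcgbp at 484 ± 105, Tff3 at 453 ± 85.5 and Spink4 at 383 ± 67.8 RPKM, with overlapping ranges. Clca1 at 165 ± 47.4 and Agr2 at 99.4 ± 30.6 overlapped each other, and so did Ccl9 at 39.0 ± 8.01 and Muc2 at 27.6 ± 6.08 RPKM, although Ccl9 lay above Muc2 in all 3 libraries. Spdef stood at 15.6 ± 2.79 and Zg16 last at 5.88 ± 1.32 RPKM. Zg16 was thus the lowest of the 9 in every fetal library, while in adult cells its range overlapped that of Fcgbp and it lay above Fcgbp in 2 of 3 libraries. Together the 9 genes took 0.501%, 0.746% and 0.758% of the counts of fetal libraries 1 to 3 and 3.24%, 3.10% and 1.77% of adult ones.

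Within each group 1 library stood apart for these genes. Adult replicate 3 lay below the mean of adult replicates 1 and 2 by −1.27 (log2) for Zg16, −0.98 for Muc2, −0.97 for Clca1, −0.83 for Fcgbp and −0.70 for Tff3. The same library differed by only −0.23 for Agr2, −0.20 for Spdef, −0.02 for Spink4 and 0.18 for Ccl9. So 5 of the 9 were lower by more than 0.5 there, as were 7.15% of tested genes. Atoh1, named after its values were seen, had the same pattern at 39.8, 41.9 and 19.7 CPM in adult replicates 1 to 3. It is 1 of 12 tested transcription factors linked to goblet cells, whose median difference in adult replicate 3 was only −0.17. Of 25 other tested goblet products 6 were lower there by more than 0.5.

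In fetal replicate 1 all 9 genes lay below the mean of fetal replicates 2 and 3, by −0.75 for Clca1 to −0.44 for Spink4. There 6 of the 9 were lower by more than 0.5, as were 4.43% of tested genes. The 25 tested genes of a wider list of goblet products lay below in that library too, all 25 of them, 11 by more than 0.5. Several lists of other cell types were low there as well. The median difference was −0.44 for Paneth, −0.32 for enterocyte, −0.30 for enteroendocrine, −0.56 for pancreatic, −0.98 for stomach and −0.22 for immune markers. Mesenchyme markers (0.21) and the 3 tested tuft markers (0.60) went the other way. The median was −0.56 for the 9 genes and 0.00 for all tested genes. With both libraries left out, an alternative added after the data were seen, 7 genes were still called lower, and 2, Ccl9 and Spdef, higher.

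**Figure D4:**
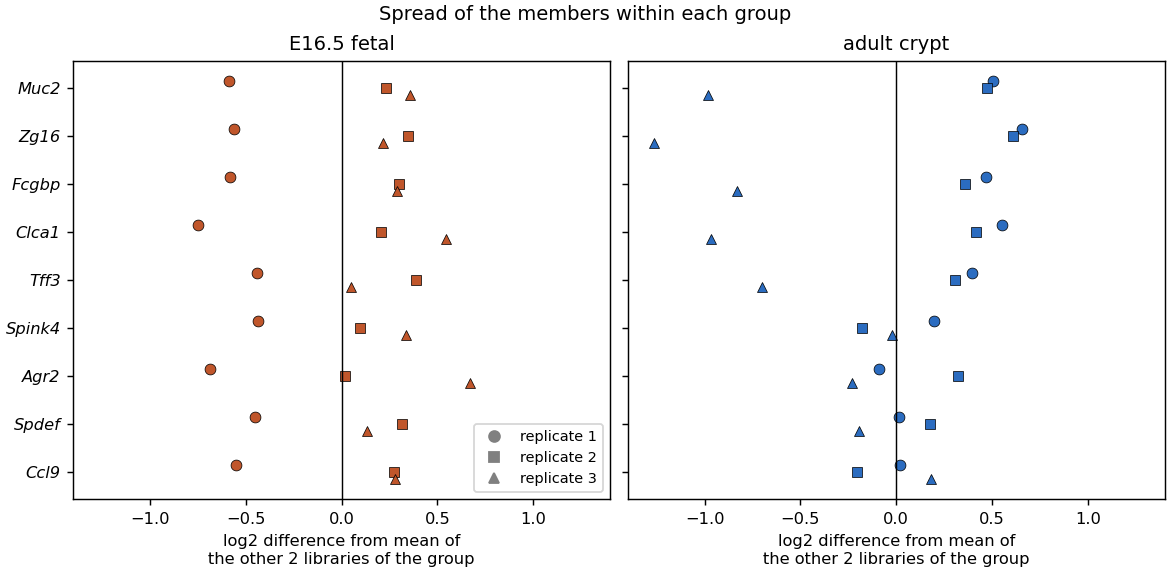
Log2 difference of each library from the mean of the other 2 libraries of its group, for the 9 genes, in fetal (left) and adult (right) cells. Fetal replicate 1 is low in all 9, and adult replicate 3 is low in Muc2, Zg16, Fcgbp, Clca1 and Tff3 (−1.27 to −0.70) but not in Spink4 or Ccl9.

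Close relatives of the members were described from a list of 27 symbols, of which 24 were in the table and 14 were tested. Of these 10 were lower and 3 higher in fetal cells, where 25.9% of all tested genes were lower and 29.0% higher. The Clca cluster on chromosome 3 was lower throughout its tested genes. Clca3b stood at 67.0, 52.5 and 45.3 CPM in fetal and 1775, 1978 and 2765 CPM in adult libraries (log2 fold change −5.31 ± 0.20, edgeR adjusted p = 2.35e-10), and Clca3a2, Clca4b and Clca3a1 at −4.69 ± 0.23, −2.74 ± 0.17 and −1.38 ± 0.28. Adult replicate 3, the lowest adult library for Clca1, was the highest for Clca3b. Clca4a had 2 fetal and 93 adult counts, and the ratio of adult to fetal was 71.6 (19.3 to 600.2, exact 95% counting interval). Members of this cluster resemble each other in sequence, and how reads that fit several of them were counted is not given in the sources used here.

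The Fcgbp-like gene 9530053A07Rik, next to Fcgbp on chromosome 7, was lower by −1.49 ± 0.22, a fold change near that of Fcgbp itself. The other trefoil genes, which are made in the stomach, were higher: Tff2 had 61 fetal and 0 adult counts, at least 13.2-fold higher (floor of 3 counts, set over all adult libraries), and Tff1 stood at 2.49, 2.24 and 19.2 CPM in fetal libraries. Tff1 had 1 adult count, a ratio of 158 (28.0 to 6256), and its fitted log2 fold change was 6.80, or 4.97 without fetal replicate 3. Both belong to the stomach marker list, whose sum peaked in the same fetal replicate 3 as Tff1. The ETS factor Ehf, a relative of Spdef, was lower (−1.79 ± 0.09), and the trypsin inhibitor Spink1, which the pancreas also makes, was higher (2.55 ± 0.30).

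Other tested chemokines were lower or not called. Ccl6, whose gene lies next to Ccl9 on chromosome 11, stood at 10.2, 19.8 and 24.8 CPM in fetal and 80.6, 77.9 and 63.3 CPM in adult libraries (−1.99 ± 0.22, edgeR adjusted p = 6.73e-06). Ccl25 and Ccl28, which guide lymphocytes to the gut, were lower by −1.61 ± 0.09 and −5.00 ± 0.19. Ccl20 was not called, at −0.51 ± 0.49. Ccr1, a receptor of Ccl9, had 1 fetal and 0 adult counts.

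Other mucins changed in both directions, with 4 of 6 tested lower and 2 higher, beside 25.9% lower and 29.0% higher over all tested genes. The membrane mucins Muc3, Muc4, Muc20 and Muc13 of the enterocyte glycocalyx were lower by −4.59 ± 0.16, −2.25 ± 0.11, −2.04 ± 0.25 and −0.62 ± 0.10. Muc1, a membrane mucin of many ductal epithelia, was at 24.7, 29.4 and 42.0 CPM in fetal and 0.707, 2.04 and 1.38 CPM in adult libraries (4.52 ± 0.31, edgeR adjusted p = 7.27e-08). Muc6, the gel-forming mucin of gastric and duodenal glands and a neighbour of Muc2 on chromosome 7, was higher at 18.6, 12.2 and 13.1 against 4.42, 1.87 and 0.691 CPM (2.65 ± 0.39, and 3.49 without adult replicate 1). The gastric and airway mucins of the same cluster had few reads: Muc5ac 36 fetal and 0 adult counts, and Muc5b 45 and 4. By fetal replicate 1 to 3 the counts were 0, 1 and 35 for Muc5ac and 1, 6 and 38 for Muc5b. Most thus came from replicate 3, the library with 426 CPM of stomach markers, a list that holds Muc5ac.

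Transcription factors linked to goblet cells did not move as a block. Of 12 tested, 4 were lower, 4 higher and 4 not called, with a median log2 fold change of −0.05. These counts are near the 25.9% lower and 29.0% higher over all tested genes. The lower ones were Elf3 (−1.17 ± 0.09), Hnf4a (−1.06 ± 0.09), Klf4 (−0.73 ± 0.16) and Cdx2 (−0.28 ± 0.08), of which Klf4 is the one best known for goblet cell differentiation. Foxa2, Foxa1 and Creb3l4 were higher by 0.68 ± 0.16, 0.53 ± 0.13 and 0.71 ± 0.18, and so was Gfi1, a factor downstream of Atoh1 (0.75 ± 0.23), a call lost without fetal replicate 2 (adjusted p = 0.086) or adult replicate 1 (adjusted p = 0.0582). Atoh1, the switch to secretory fate, stood at 17.3, 26.8 and 23.3 CPM in fetal libraries and was not called (−0.59 ± 0.24, edgeR adjusted p = 0.0524). It was lower by −0.86 without adult replicate 3 (adjusted p = 7.30e-04, range over settings 7.30e-04 to 0.22).

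Other goblet products were also split. Of 25 tested, 10 were lower, 2 higher and 13 not called, with a median of −0.20, where 25.9% of all tested genes were lower and 29.0% higher. The lectin Itln1 had 10 fetal counts and stood at 0.343 ± 0.278 CPM against 69.6 ± 12.0 CPM in adult cells (−7.48 ± 0.28, and −8.39 without fetal replicate 3). Lrrc26, a channel subunit of secretory epithelia, was lower by −3.62 ± 0.25, Oit1 by −2.28 ± 0.23 and the transporter Slc12a8 by −1.09 ± 0.11. Tspan13, a tetraspanin, was higher by 0.99 ± 0.10. Retnlb, a goblet lectin-like peptide induced by microbes and worms, had 0 fetal and 5 adult counts. Itln1 is also a Paneth cell product, and the Paneth marker list, which holds it too, summed to 59.3 to 90.2 CPM in fetal and 521 to 661 CPM in adult libraries, with 7 of 11 tested lower and 2 higher. Among the other secretory types, 11 of 14 enteroendocrine markers were higher and 2 lower, and 3 of 3 tested tuft markers were lower.

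Of 25 tested ER and folding genes of the secretory machinery 10 were higher and 3 lower, with a median of 0.18, where 29.0% of all tested genes were higher and 25.9% lower. Fkbp11, a prolyl isomerase of secretory cells, was at 27.8, 39.8 and 28.8 CPM in fetal and 6.72, 7.63 and 5.19 CPM in adult libraries (2.30 ± 0.20, edgeR adjusted p = 6.12e-07). The chaperone Hspa5 and the disulfide isomerase Pdia6 were higher by 0.75 ± 0.14 and 0.71 ± 0.12, and the stress sensor Ern1 was lower by −0.66 ± 0.11. These genes serve all secretory cells. Pancreatic exocrine markers summed to 1907 to 3963 CPM in the same fetal libraries and to 10.0 to 20.7 CPM in adult ones. The part of pancreatic cells in the ER result was not tested.

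Mucin glycosylation genes included large changes in both directions. Of 27 tested, 14 were lower and 7 higher, with a median of −0.32, beside 25.9% lower and 29.0% higher over all tested genes. Galnt6, which starts O-glycan chains, was lower by −2.07 ± 0.13, B4galnt2, which makes the Sda antigen, by −2.07 ± 0.08 and B3gnt7 by −3.25 ± 0.23. Fut2, the secretor fucosyltransferase, was at 71.1, 104 and 107 CPM in fetal and 4.95, 1.19 and 2.94 CPM in adult libraries (4.96 ± 0.28, edgeR adjusted p = 1.05e-08). The sialyltransferase St3gal1 was higher by 3.60 ± 0.13.

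**Figure D5:**
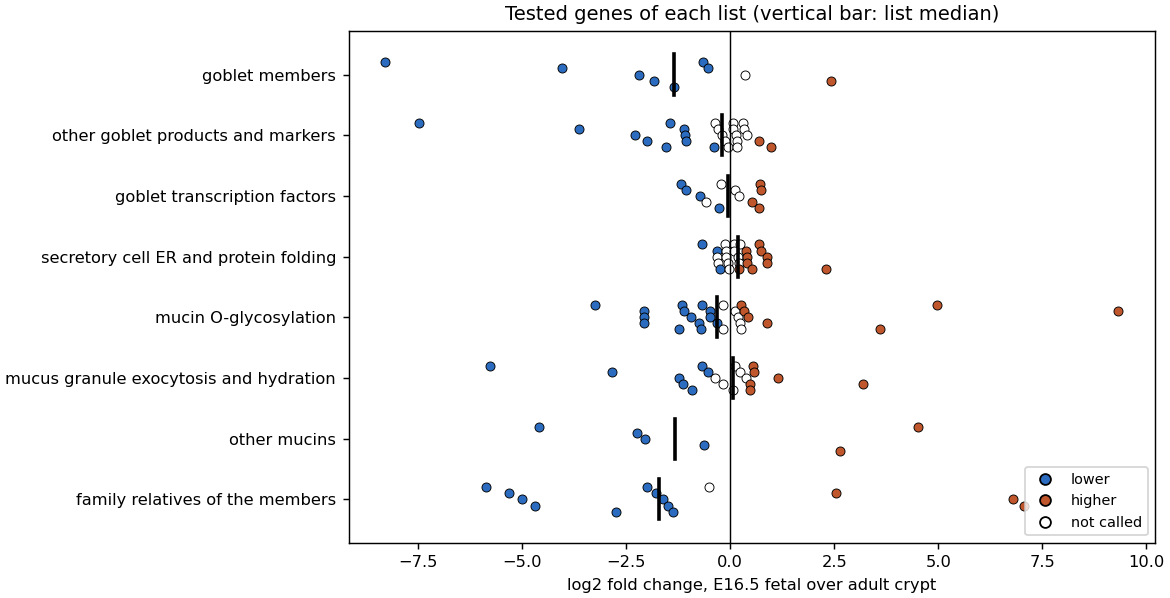
Log2 fold change of fetal over adult for every tested gene of 8 lists (filled blue, called lower; filled orange, called higher; open, not called), with each list's median as a vertical bar. The medians run from −1.70 for relatives of the members and −1.35 for the members to 0.18 for ER and folding genes.

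Release and hydration of mucus depend on granule fusion and on chloride and bicarbonate secretion. Of 19 tested genes of this list 7 were lower and 6 higher, with a median log2 fold change of 0.07. Over all tested genes 25.9% were lower and 29.0% higher. The genes of this list named next are all among the lower ones. The Na-K-Cl cotransporter Slc12a2 was lower by −2.85 ± 0.15, the chloride channel Cftr by −1.23 ± 0.11 and the potassium channel Kcnn4 by −5.76 ± 0.18. Mep1b, the meprin subunit that frees Muc2 mucus in the small intestine, was lower by −1.13 ± 0.17. Type 2 cytokines induce goblet genes such as Clca1. Of 9 tested genes of their signalling 6 were lower and 2 higher, where 25.9% and 29.0% of all tested genes were. Stat6 at −0.85 ± 0.09, Il13ra1 at −1.05 ± 0.13 and Il4ra at −0.73 ± 0.14 were among the lower ones. The part of this signalling in the Clca1 difference was not tested. In the Notch list 5 of 13 were lower and 3 higher, beside 25.9% lower and 29.0% higher over all tested genes. Notch1 (−0.56 ± 0.10) and its target Hes1 (−0.46 ± 0.09) were among the lower ones. Neurog3 (3.06), which is also on the enteroendocrine marker list, and Gfi1 were among the higher ones.

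The genes most like Muc2 over the 6 libraries were named by a measure of likeness. Likeness was the Euclidean distance between log2 CPM values centred per gene, among 10324 genes with an average log2 CPM of at least 3. The 5 nearest were Sis (distance 0.53), Ddx60 (0.67), Slc13a1 (0.72), Oasl2 (0.83) and Abcg5 (0.86), with log2 fold changes of −4.06, −4.12, −4.12, −4.38 and −4.73. Lrrc26, one of the goblet products above, came next at 0.89 (place 6). Sis encodes sucrase-isomaltase of enterocytes. Of 15 tested enterocyte markers 8 were higher and 6, with Sis among them, lower in fetal cells, where 29.0% and 25.9% of all tested genes were. Of the other 8 genes Clca1 ranked nearest, at place 162, followed by Fcgbp at 243 and Tff3 at 391, and Ccl9 was at place 9916. With 2 groups, the distance mostly follows the size of the fetal to adult difference.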

How the data were processed

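Total RNA of sorted proximal small intestinal epithelium was sequenced in 3 fetal and 3 adult crypt libraries. The deposited values are raw counts per gene, whole numbers with different totals per library. Build mm10, featureCounts and edgeR appear in the submitters' processing notes for the series. Whether featureCounts made this table, and with which aligner, annotation and strand setting, is not given in the sources used here. A stranded SMARTer Pico kit for total RNA made the adult libraries, per the labels' protocols. No fetal kit is named, so kit and age may differ together. Each column was tied to its sample by name.

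Counts were tested with edgeR 4.0.16 in R 4.3.3 (quasi-likelihood, TMM, filterByExpr by group, no covariate), fitted to the 6 libraries over all genes. Calls needed a Benjamini-Hochberg adjusted p under 0.05. The SE is the log2 fold change divided by the square root of F. CPM were computed from the counts, scaled by the adjusted library size, given as mean ± SD of 3. Log2 deviations within groups used a pseudocount of 0.5 CPM, ratios to Muc2 one of 0.5 counts. Counting intervals are exact (95%) and, like the floor of 3 counts, cover counting error only. The 7 rows without a symbol carry an Entrez identifier and stayed in, as did the ribosomal RNA row Rn45s (7.32% to 10.7% of counts). Coordinates are from RefSeq GRCm38, overlaps and exon lengths from GENCODE M21. The procedure was tested on simulated counts.

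Named genes are all members, up to 6 genes per list with the smallest p, all relatives of the members, and the 5 genes nearest Muc2; Atoh1, Gfi1, Cdx2, Retnlb, Muc5ac, Muc5b, Epcam, Cd24a, Adgre1, Ptprc and Lyz2 were named after their values were seen. The members and lists were chosen with earlier results of these data known. Alternatives were other size factors, DESeq2 1.42.0, other filters, no Rn45s, a replicate block, each library left out, and, added after seeing the data, members left out of library sizes and 2 libraries left out together.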

Additional observations from a re-analysis of the deposited data

How the results depend on the processing

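The 7 lower calls and the Ccl9 call held in all 16 settings, with log2 fold changes of −8.59 to −8.09 for Zg16, −4.29 to −3.85 for Muc2, −2.45 to −1.97 for Clca1, −2.06 to −1.65 for Fcgbp, −1.54 to −1.20 for Tff3, −0.90 to −0.44 for Agr2, −0.63 to −0.38 for Spink4 and 2.33 to 2.65 for Ccl9. Spdef was called higher, making 2 genes called higher, by library size only, with no filter on low counts, without fetal replicate 1, and without fetal replicate 1 and adult replicate 3 together. Over the left-out libraries the count of higher members ran from 1 to 2. With Spdef in place of Muc2 as the reference, the log2 ratios turned to −0.87 for Spink4, −1.03 for Agr2, −1.66 for Tff3, −2.14 for Fcgbp and −2.51 for Clca1, since Spdef itself was not lower in fetal cells. The count of genes called over the whole table stayed between 6397 and 8205. With the replicate block 6886 genes were called, 7 members lower and 1 higher. Same-numbered libraries of the 2 groups deviated with correlations of −0.07, −0.04 and −0.10 over genes. No fetal library correlated best with the adult library of its own number. With 3 libraries per group this showed no pairing by number but cannot exclude one. Other list counts moved over 1.5 times in these settings: without fetal replicate 1, 4 other goblet products were higher and 1 ER gene lower, and with no filter 4 other mucins and 13 stomach markers were higher. By depth, Zg16 rested on 199 fetal counts and Ccl9 on 386 adult counts, the fewest in either group among the 8 called of the 9 genes.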
